A study of Mus musculus with 9 samples.

Results

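Livers that had received LRH1 together with acetaminophen were compared with vehicle livers, gene by gene, to show which differences from the vehicle level were present in livers given both. The comparison used 6 of the 9 livers sequenced, chosen by their labels: LRH1+APAP livers 1 to 3 and vehicle livers 1 to 3. All livers came from Balb/c mice aged 9 weeks, and each library was made from 1 liver. The vehicle group had vehicle as its treatment, the LRH1+APAP group had LRH1 and APAP (acetaminophen, or paracetamol), and the remaining 3 livers had APAP without LRH1 and are given here for reference. The sources used here do not give dose, route, time of collection, sex or the way LRH1 was supplied. No group with LRH1 alone was analysed here, so a difference between LRH1+APAP and vehicle livers joins the effects of both agents, which cannot be told apart.

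Acetaminophen is oxidised by cytochrome P450 enzymes, above all in hepatocytes around the central vein, to a reactive quinone imine. The quinone imine uses up glutathione, binds proteins and injures mitochondria, and surviving cells answer with antioxidant, heat shock and amino acid stress programmes. LRH1, the nuclear receptor encoded by Nr5a2, is a transcription factor of hepatocytes known for its part in bile acid, cholesterol and glucose metabolism.

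Values are the authors' deposited FPKM (fragments mapped, per kilobase of transcript and per 1e6 fragments), summed over the transcripts of each gene symbol. Differences are LRH1+APAP minus vehicle on the scale of log2(FPKM + 1), which understates the change of genes with low values, and are given with their standard error from limma. A gene was said to rise or fall where limma's adjusted p (Benjamini-Hochberg over the 12202 genes tested) was under 0.05. Read depth is unknown. Vehicle libraries summed to 555202 to 575365 FPKM and LRH1+APAP libraries to 520072 to 529493 FPKM. Replicate spread, as the root mean square SD of log2 values over genes, was 0.178 in vehicle livers, 0.177 in LRH1+APAP livers and 0.312 in APAP livers. All 3 groups share 1 estimate of spread in the fit, so the wider APAP group enters each adjusted p below. Hepatocyte markers were abundant in every library, with Albumin (Alb) at 33380 to 38330 FPKM in vehicle livers and 32280 to 37620 FPKM in LRH1+APAP livers.

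Nr5a2 itself (chr1:136843585-136960448, mm10) was read first, as the gene that encodes LRH1. Vehicle livers 1 to 3 held 14.7, 13.1 and 12.3 FPKM of it, APAP livers 10.8, 9.29 and 10.3 FPKM, and LRH1+APAP livers 206, 83.8 and 113 FPKM. Every LRH1+APAP liver lay above every other liver, by 3.13 ± 0.27 over vehicle (adjusted p = 7.74e-05) and by 3.50 over APAP (adjusted p = 0.00102). Both transcript models of the gene were higher. The model of 3711 bases held 11.2 to 12.6 FPKM in vehicle livers and 53.4 to 157 FPKM in LRH1+APAP livers, and the model of 3626 bases held 0 to 2.10 FPKM and 28.9 to 48.7 FPKM.

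**Figure D1:**
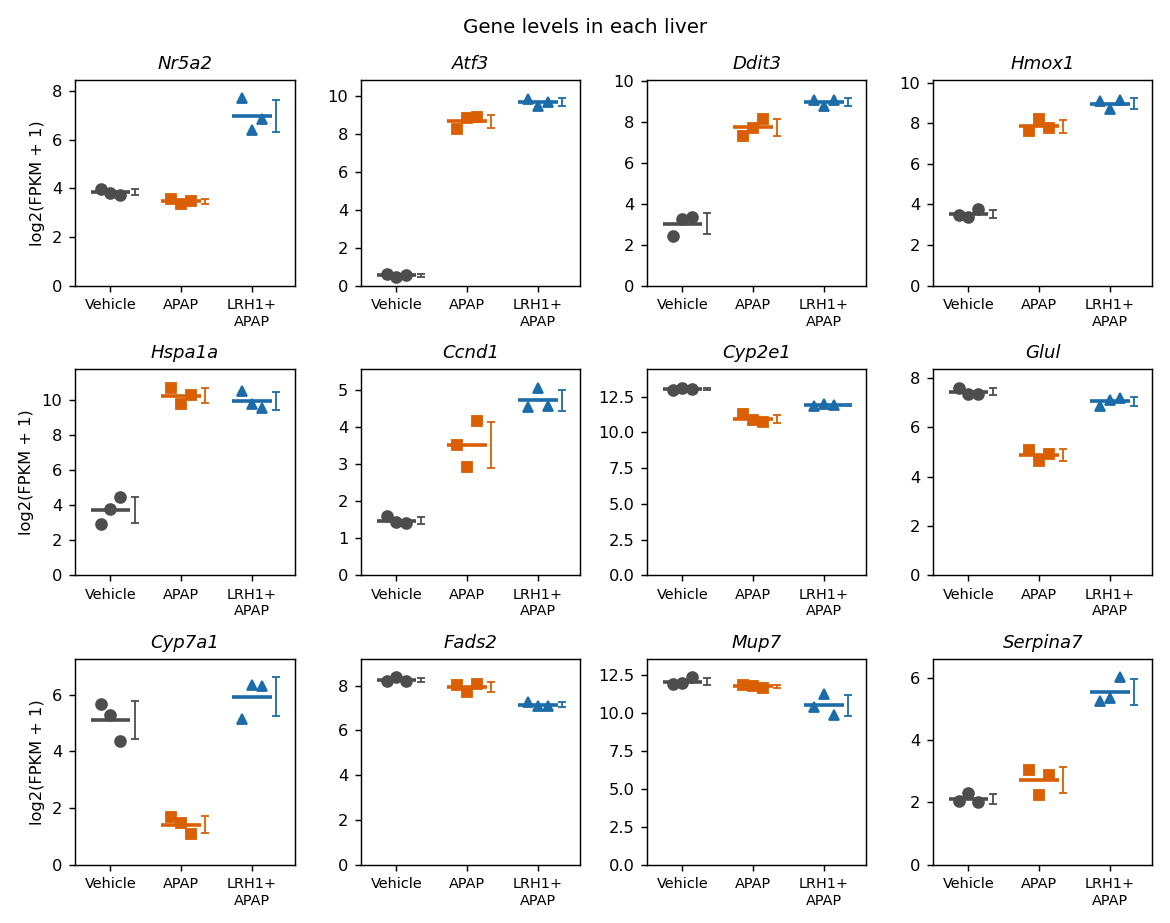
Levels of 12 genes in each of the 9 livers as log2(FPKM + 1), with the mean as a line and the SD as a bar beside each group of 3. Nr5a2 and Serpina7 stood high in LRH1+APAP livers, Atf3, Ddit3, Hmox1 and Hspa1a in both APAP groups, Glul and Cyp7a1 were low in APAP livers, and Fads2 and Mup7 were lowest in LRH1+APAP livers.

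Most of the transcriptome that moved lay above vehicle. Of 12202 genes, 5759 passed, or 47.2 percent. In the direction of LRH1+APAP, 4780 (39.2 percent) were higher and 979 (8.02 percent) were lower. Counts of list members that rose or fell, given below, are to be read beside these shares. At a difference of at least 2-fold, 716 (5.87 percent) were higher and 84 (0.688 percent) were lower, and 153 genes rose against 6 that fell by at least 4-fold. Vehicle and LRH1+APAP livers did not overlap in 8441 genes (69.2 percent), so non-overlap of these groups is common and marks no gene by itself. The genes that rose had been of low level, with a median of 4.49 FPKM in vehicle and 7.78 FPKM in LRH1+APAP livers, whereas those that fell had been abundant, with medians of 32.1 and 20.7 FPKM. As a description of the same genes, those that rose held 12.7 to 12.9 percent of each vehicle library's FPKM and 25.3 to 27.7 percent of each LRH1+APAP library's, and those that fell held 42.2 to 45.3 percent and 27.2 to 28.8 percent. The balance of directions depends on scaling: the median of all genes was 0.22 above vehicle in the deposited values, 0.02 after upper-quartile scaling and -0.06 after quantile normalization, and the share of calls that were higher was 83, 49.6 and 42 percent in that order. The count of lower genes was 610 without vehicle liver 1, 585 without vehicle liver 2, and 646, 647 and 543 without LRH1+APAP liver 1, 2 or 3.

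**Figure D2:**
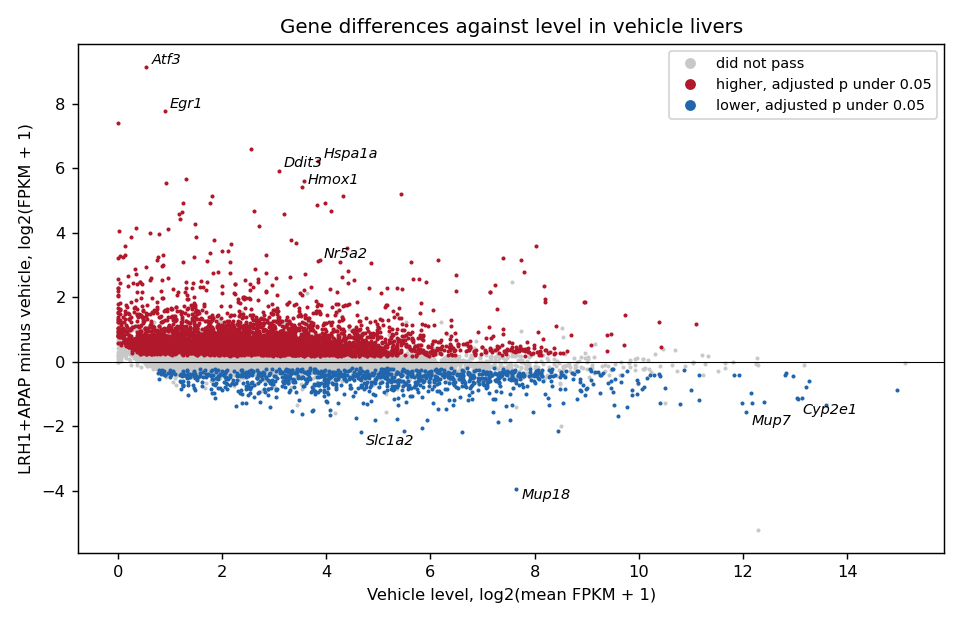
Difference between LRH1+APAP and vehicle livers for each gene tested, against its vehicle level, both on the log2(FPKM + 1) scale. Rises of over 4 units, such as Atf3 and Egr1, stood mostly at low vehicle levels. Among genes at high vehicle levels, Cyp2e1 and Mup7 lay below 0, Alb near 0 and Fth1, which encodes ferritin heavy chain, above 0.

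For orientation, APAP alone against vehicle gave 7680 calls (62.9 percent), 5835 higher (47.8 percent) and 1845 lower (15.1 percent). LRH1+APAP against APAP gave 1501 calls (12.3 percent), 870 higher (7.13 percent) and 631 lower (5.17 percent). These comparisons share livers, so they are set side by side gene by gene and no overlap is drawn from them. The counts against APAP are fragile. Without vehicle liver 1, 2 or 3 they were 552, 522 and 626 higher and 324, 301 and 360 lower; without APAP liver 1, 2 or 3 they were 2031, 556 and 347 higher and 2607, 418 and 127 lower; without LRH1+APAP liver 1, 2 or 3 they were 363, 210 and 158 higher and 168, 69 and 53 lower.

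The greatest rises were stress genes, and all 12 that the naming rule took were transcription factors, chaperones or antioxidant and detoxifying enzymes, apart from Sprr1a. Atf3, a transcription factor induced by many stresses, went from 0.545, 0.383 and 0.458 FPKM (vehicle) to 939, 723 and 829 FPKM (LRH1+APAP) (9.14 ± 0.16, adjusted p = 2.12e-08). APAP livers held 312, 462 and 474 FPKM of Atf3, so the 3 groups did not overlap and the LRH1+APAP group was the highest (1.01 above APAP, adjusted p = 0.0109, from 3.68e-05 to 0.0537 over 19 alternatives and lost in 2). Egr1, a zinc finger factor switched on within minutes of a stimulus, rose from 0.959, 0.926 and 0.728 FPKM to 539, 345 and 359 FPKM (7.77 ± 0.15, adjusted p = 2.85e-08), below the 600 to 642 FPKM of APAP livers (-0.60, adjusted p = 0.0402, lost in 11 of 19 alternatives). Sprr1a, which encodes a small proline-rich protein, was listed at 0 in all 3 vehicle livers and held 168, 131 and 224 FPKM in LRH1+APAP livers.

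Jun, a subunit of AP-1, rose from 3.51, 6.01 and 5.08 FPKM to 792, 476 and 449 FPKM (6.59 ± 0.23, adjusted p = 9.92e-07). Ddit3, which encodes the stress factor CHOP, rose from 4.48, 8.66 and 9.41 FPKM to 544, 436 and 527 FPKM (5.93 ± 0.27, adjusted p = 3.43e-06), and was 158, 209 and 283 FPKM in APAP livers (1.24 below LRH1+APAP, adjusted p = 0.0256, lost in 4 of 19 alternatives). Hmox1, haem oxygenase, rose from 10.1, 9.36 and 12.5 FPKM to 541, 409 and 562 FPKM (5.43 ± 0.18, adjusted p = 8.93e-07). For Atf3, Ddit3 and Hmox1 no LRH1+APAP liver overlapped either other group. The naming rule required this of genes it took for passing against both groups, so it is no separate result. Srxn1, sulfiredoxin, rose by 5.61 ± 0.35 (adjusted p = 1.54e-05), Gsta1, a glutathione transferase, by 5.15 ± 0.35 (adjusted p = 2.62e-05), and the chaperone genes Hspa1a, Dnaja4, Hspa1b and Dnajb1 by 5.15 to 6.22.

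The 12 greatest falls that the rule took were spread over metabolic, transport and clock-linked genes. Mup18, a major urinary protein, was 178, 158 and 264 FPKM in vehicle, 4.19, 0.737 and 1.97 FPKM in APAP and 3.40, 58.4 and 6.78 FPKM in LRH1+APAP livers (-3.95 ± 0.85, adjusted p = 0.00618). Rgs16, a regulator of G protein signalling, fell from 117, 89.6 and 80.4 FPKM to 14.5, 33.4 and 16.6 FPKM (-2.18 ± 0.34, adjusted p = 0.00148), and was 4.29 to 9.49 FPKM in APAP livers. Tk1, cytosolic thymidine kinase, went from 48.9, 43.5 and 40.0 FPKM to 9.32, 10.9 and 7.57 FPKM (-2.14 ± 0.21, adjusted p = 0.000148), with 3.88 to 7.35 FPKM in APAP livers. In each of these 3 genes all LRH1+APAP livers lay below all vehicle livers, which the naming rule required of every fall it took. Inmt, a methyltransferase of tryptamine, fell from 279 to 409 FPKM to 72.9 to 84.2 FPKM (-2.13 ± 0.28, adjusted p = 0.000673), and Usp2, a deubiquitinase linked to the clock, from 21.7 to 24.7 FPKM to 3.05 to 11.1 FPKM (-1.73 ± 0.41, adjusted p = 0.00948). Acot3, a peroxisomal acyl-CoA thioesterase, was 17.7 to 38.0 FPKM in vehicle and 5.82 to 9.34 FPKM in LRH1+APAP livers (-1.81 ± 0.60, adjusted p = 0.0356, lost in 7 of 19 alternatives). Slc1a2, Thrsp, Serpina6, Cyp2c38 and Cyp4a14 were also among the 12 and are given with their pathways.

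Promoters are shown for the genes whose rises lead the comparison and for heat shock genes, which rose together. The windows span 250 bases before to 50 after the transcription start and come from RefSeq for GRCm38.p6, 5′ to 3′ on the gene's strand. Capitals mark matches, on either strand, to any of 6 short motifs: CAAGGNCA (LRH1), TGACTCA (AP-1), TGACGTCA (cyclic AMP response element), TTGCATCA (C/EBP-ATF), GAANNTTC (heat shock) and TATAAA. The Atf3 window is chr1:191183284-191183583 (minus strand), that of Sprr1a chr3:92485832-92486131 (minus strand), that of Hspa1a chr17:34972107-34972406 (minus strand), that of Hspb1 chr5:135887669-135887968 (plus strand) and that of Dnaja1 chr4:40722218-40722517 (plus strand). The heat shock genes among them were picked after their values were seen.
Atf3: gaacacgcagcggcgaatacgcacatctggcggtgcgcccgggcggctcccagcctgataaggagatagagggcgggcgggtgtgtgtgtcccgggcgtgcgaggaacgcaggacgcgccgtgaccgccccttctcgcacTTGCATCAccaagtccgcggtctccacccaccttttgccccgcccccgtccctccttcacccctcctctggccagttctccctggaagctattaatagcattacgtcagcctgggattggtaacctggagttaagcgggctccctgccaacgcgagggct
Sprr1a: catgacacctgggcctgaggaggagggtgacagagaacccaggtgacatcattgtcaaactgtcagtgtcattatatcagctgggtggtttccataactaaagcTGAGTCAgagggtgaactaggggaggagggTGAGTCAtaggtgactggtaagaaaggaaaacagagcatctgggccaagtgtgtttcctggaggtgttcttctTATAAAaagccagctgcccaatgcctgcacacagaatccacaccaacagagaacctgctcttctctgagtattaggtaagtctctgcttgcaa
Hspa1a: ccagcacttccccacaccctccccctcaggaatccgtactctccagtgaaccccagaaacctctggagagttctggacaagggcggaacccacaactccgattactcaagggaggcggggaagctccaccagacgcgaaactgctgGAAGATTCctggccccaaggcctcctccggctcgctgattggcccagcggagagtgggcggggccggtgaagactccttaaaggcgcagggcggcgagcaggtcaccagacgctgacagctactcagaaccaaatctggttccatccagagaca
Hspb1: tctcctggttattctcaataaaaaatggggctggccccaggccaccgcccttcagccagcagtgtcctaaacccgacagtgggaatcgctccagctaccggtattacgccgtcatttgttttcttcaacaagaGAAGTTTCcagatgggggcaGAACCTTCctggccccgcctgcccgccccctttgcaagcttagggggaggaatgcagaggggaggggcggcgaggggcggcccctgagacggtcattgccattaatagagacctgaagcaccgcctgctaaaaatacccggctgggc
Dnaja1: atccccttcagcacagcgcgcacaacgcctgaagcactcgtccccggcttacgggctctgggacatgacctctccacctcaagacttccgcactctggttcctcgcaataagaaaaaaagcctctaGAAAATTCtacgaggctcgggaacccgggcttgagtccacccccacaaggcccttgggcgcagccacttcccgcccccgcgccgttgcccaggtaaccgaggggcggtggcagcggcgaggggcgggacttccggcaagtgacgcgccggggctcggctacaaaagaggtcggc
The Atf3 window holds TTGCATCA starting 110 bases before the start. Sprr1a holds the AP-1 letters on the minus strand at 146 and 116 bases before the start and TATAAA at 43 bases before it. The heat shock letters stand 104 bases before the start in Hspa1a, 117 and 97 in Hspb1 and 124 in Dnaja1. Of the 12 heat shock genes of the list that had a promoter in the table, 9 (75.0 percent) held GAANNTTC, compared with 2149 of all 27025 promoters (7.95 percent). TTGCATCA was in 5 of 19 promoters of integrated stress response genes (26.3 percent) and in 0.929 percent of all. Both lists were made up of genes of these pathways, so the 2 shares are no result of these data. Among the 557 promoters of genes higher by at least 2-fold, GAANNTTC was in 6.82 percent and TTGCATCA in 2.15 percent. Of the promoters of genes tested, 5.82 and 0.675 percent held them. CAAGGNCA was in 29 of the 557 promoters of genes higher by at least 2-fold (5.21 percent), in 6 of 58 of those lower by at least 2-fold (10.3 percent), in 5.08 percent of the promoters of genes tested and in 6.67 percent of all. The Mup18, Slc1a2 and Rgs16 windows, of the greatest falls, held none of the 6 motifs, which says only that these letters are not in these windows.

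Antioxidant genes rose without exception among those tested. Of 20 NRF2 and glutathione genes, 20 rose, with a median of 1.33 where that of all genes was 0.22. Gclc, the catalytic subunit that limits glutathione synthesis, was 103, 86.3 and 76.3 FPKM in vehicle and 503, 554 and 681 FPKM in LRH1+APAP livers (2.69 ± 0.16, adjusted p = 1.31e-05). Sqstm1, the autophagy receptor p62, rose from 164 to 170 FPKM to 1414 to 1741 FPKM (3.23 ± 0.10, adjusted p = 6.71e-07), above the 888 to 1068 FPKM of APAP livers (0.67, adjusted p = 0.00763). Gstm3, a mu-class glutathione transferase, was 4.66, 3.38 and 3.19 FPKM in vehicle, 4.58, 3.63 and 6.04 FPKM in APAP and 14.2, 27.2 and 35.4 FPKM in LRH1+APAP livers. Its rise over vehicle was 2.41 ± 0.30 (adjusted p = 0.000534) and over APAP 2.14 (adjusted p = 0.00651), with only the LRH1+APAP livers high. Its relative Gstm1, whose reads could be shared with other mu-class genes, was also highest in LRH1+APAP livers, with a rise of 0.83 ± 0.17 over vehicle (adjusted p = 0.00507) and of 1.12 over APAP (adjusted p = 0.00879).

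All 15 heat shock chaperone genes tested rose, with a median of 2.39. Hspa1a (chr17:34969360-34972156, mm10), inducible HSP70, went from 6.68, 12.7 and 20.8 FPKM to 1477, 878 and 734 FPKM (6.22 ± 0.40, adjusted p = 1.86e-05). Hspa1b, its near-identical neighbour, rose by 5.20, and the split of reads between the pair is uncertain. Hspb1, small heat shock protein 27, was 13.0 to 19.1 FPKM in vehicle, 162 to 232 FPKM in APAP and 400.0 to 485 FPKM in LRH1+APAP livers, where it exceeded APAP by 1.15 (adjusted p = 0.00712). Zfand2a, an arsenite- and heat-inducible zinc finger gene, had the same order, 4.26 to 5.85, 66.7 to 91.9 and 134 to 167 FPKM. In the list of endoplasmic reticulum chaperones 7 of 19 rose and 12 did not pass, beside 39.2 percent of all genes that rose. Hspa5, the lumenal HSP70 known as BiP, was 250 to 324 FPKM in vehicle and 927 to 1207 FPKM in LRH1+APAP livers (1.86 ± 0.16, adjusted p = 9.23e-05). The 7 became 2 after either rescaling, 3 without vehicle liver 1 or 2 or LRH1+APAP liver 1, and 4 without LRH1+APAP liver 2, and the list's median of 0.16 was -0.10 after upper-quartile scaling.

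Of 20 integrated stress response genes 16 rose, 1 fell and the median was 1.32. The member that fell was Shmt2, mitochondrial serine hydroxymethyltransferase (-0.45, adjusted p = 0.0411), and 0 fell in limma without vehicle liver 1, 2 or 3, APAP liver 3 or LRH1+APAP liver 2. Asns, asparagine synthetase, was 0.0628, 0.163 and 0.218 FPKM in vehicle, 14.8, 13.7 and 9.03 FPKM in APAP and 7.91, 5.70 and 5.35 FPKM in LRH1+APAP livers (2.66 ± 0.19 over vehicle, adjusted p = 2.86e-05). Psat1, of serine synthesis, had the same order at 0.0695 to 0.148, 19.3 to 38.7 and 10.1 to 13.7 FPKM. Both lay below APAP (-0.87 and -1.11, adjusted p = 0.0239 and 0.0194), each a call lost in 5 of 19 alternatives. Trib3, a pseudokinase induced by CHOP, ran the other way, with 2.96 to 5.46, 9.74 to 11.1 and 17.1 to 18.0 FPKM. Fgf21, a stress hormone of the liver, was 5.18 to 11.9 FPKM in vehicle, 27.2 to 64.0 FPKM in APAP and 10.3 to 19.8 FPKM in LRH1+APAP livers, and did not pass against vehicle (0.54 ± 0.38, adjusted p = 0.271).

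Immediate early genes rose in 16 of 21 cases (median 2.27) and p53 targets in 15 of 17 (median 1.34). Klf6 rose from 2.15 to 2.56 FPKM to 91.1 to 118 FPKM, and Myc from 0.960 to 1.47 FPKM to 38.5 to 56.3 FPKM. Cdkn1a, the cell cycle inhibitor p21, was 0.921, 1.31 and 3.12 FPKM in vehicle and 53.1, 46.6 and 52.6 FPKM in LRH1+APAP livers (4.29 ± 0.34, adjusted p = 5.10e-05). Mdm2, which targets p53 for degradation, rose by 2.06 ± 0.12 (adjusted p = 1.31e-05), and Trp53inp1, a p53-induced nuclear protein, rose by 2.18 ± 0.13 and lay above APAP by 0.92 (adjusted p = 0.00673). Genes of G1 entry and the cell cycle rose in 10 of 16 cases, beside 39.2 percent of all genes, or 4 where a mean of at least 5 FPKM was required. Ccnd1, cyclin D1, was 2.00, 1.68 and 1.65 FPKM in vehicle, 10.4, 6.48 and 16.7 FPKM in APAP and 22.1, 32.0 and 22.5 FPKM in LRH1+APAP livers (3.24 ± 0.28, adjusted p = 7.61e-05). Mki67, a proliferation marker, was too low to test, at 0.0634 to 0.0871 FPKM in vehicle and 0.289 to 0.861 FPKM in LRH1+APAP livers.

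Of the lists of protein synthesis and turnover, ribosomal proteins and proteasome subunits differed by the smaller amounts. All 20 ribosomal protein genes tested rose, by 0.26 to 0.61 with a median of 0.38, and after upper-quartile scaling 3 rose with a median of 0.11. Rpl10a, of the large subunit, was 176 to 187 FPKM in vehicle and 268 to 288 FPKM in LRH1+APAP livers (0.61 ± 0.07, adjusted p = 0.00031). Of 21 ribosome biogenesis genes 19 rose (median 0.70), or 12 after quantile normalization. Gnl3, nucleostemin, went from 17.0 to 19.1 FPKM to 41.7 to 46.7 FPKM (1.27 ± 0.10, adjusted p = 6.25e-05). Proteasome subunits rose in 26 of 31 cases (median 0.39), and in 14 with 2 that fell after upper-quartile scaling. Cytosolic tRNA synthetases rose in 17 of 20 cases (median 0.85), led by Aars for alanine at 35.6 to 39.8 FPKM in vehicle and 99.7 to 103 FPKM in LRH1+APAP livers (1.39 ± 0.07, adjusted p = 3.66e-06).

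**Figure D3:**
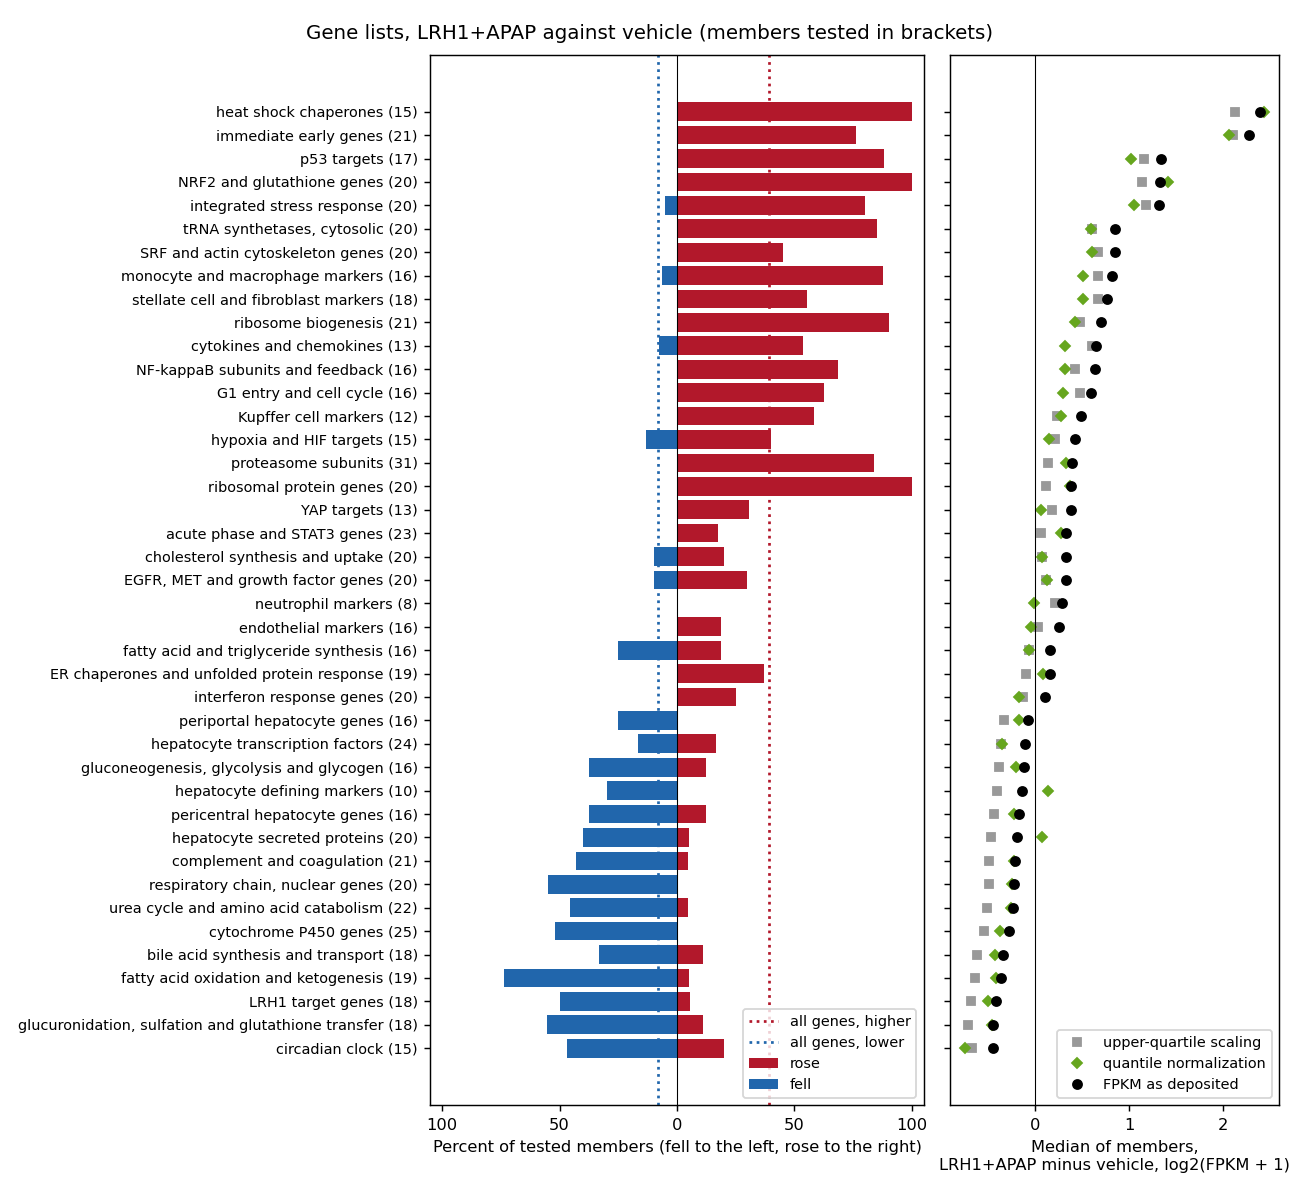
Left, percent of tested members of each gene list with at least 8 tested that rose (right of 0) or fell (left of 0), with dotted lines at 39.2 and 8.02 percent for all genes; right, the list's median difference in deposited values and after each rescaling. Heat shock, NRF2 and ribosomal protein genes all rose, while fatty acid oxidation, conjugation, P450 and LRH1 target genes fell more often than they rose.

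Drug-oxidising P450 genes fell in 13 of 25 cases, with a median of -0.28, and in limma 0 rose, also at an unadjusted p under 0.05 (1 without vehicle liver 1 or LRH1+APAP liver 1). Cyp2e1 (chr7:140763833-140774977, mm10), the main enzyme that activates acetaminophen, was 7967, 8817 and 8335 FPKM in vehicle, 2455, 1850 and 1723 FPKM in APAP and 3704, 4060 and 3772 FPKM in LRH1+APAP livers. It differed from vehicle by -1.12 ± 0.13 (adjusted p = 0.000392) and was higher than APAP by 0.95 (adjusted p = 0.00626), and the 3 groups did not overlap. Cyp2c38 was 60.0, 54.7 and 65.3 FPKM in vehicle, 1.31, 1.98 and 1.90 FPKM in APAP and 16.0, 14.6 and 19.8 FPKM in LRH1+APAP livers (-1.79 ± 0.14, adjusted p = 4.51e-05), and Cyp2c39 fell by 1.35 on the log2 scale, although reads of Cyp2c paralogs may be shared. Other members reached the vehicle range. Cyp2a5, the coumarin hydroxylase, was 911, 678 and 636 FPKM in vehicle, 59.9, 22.3 and 53.9 FPKM in APAP and 539, 970.0 and 662 FPKM in LRH1+APAP livers. Its difference from vehicle was -0.06 with a standard error of 0.36 (adjusted p = 0.901), and Cyp2a4, a close paralog, Cyp1a2 and Cyp3a11 likewise overlapped vehicle (-0.12, -0.01 and -0.05; adjusted p = 0.763, 0.982 and 0.859). In the pair of fatty acid hydroxylases regulated by PPARalpha both groups lay below vehicle and overlapped each other. Cyp4a14 was 558 to 899 FPKM in vehicle, 355 to 522 FPKM in APAP and 170.3 to 386 FPKM in LRH1+APAP livers (-1.67 ± 0.31 against vehicle, adjusted p = 0.00332), and Cyp4a10 fell by 1.33 on the log2 scale (adjusted p = 0.0103). Neither passed against APAP (-0.86 and -0.52, adjusted p = 0.0971 and 0.292).

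**Figure D4:**
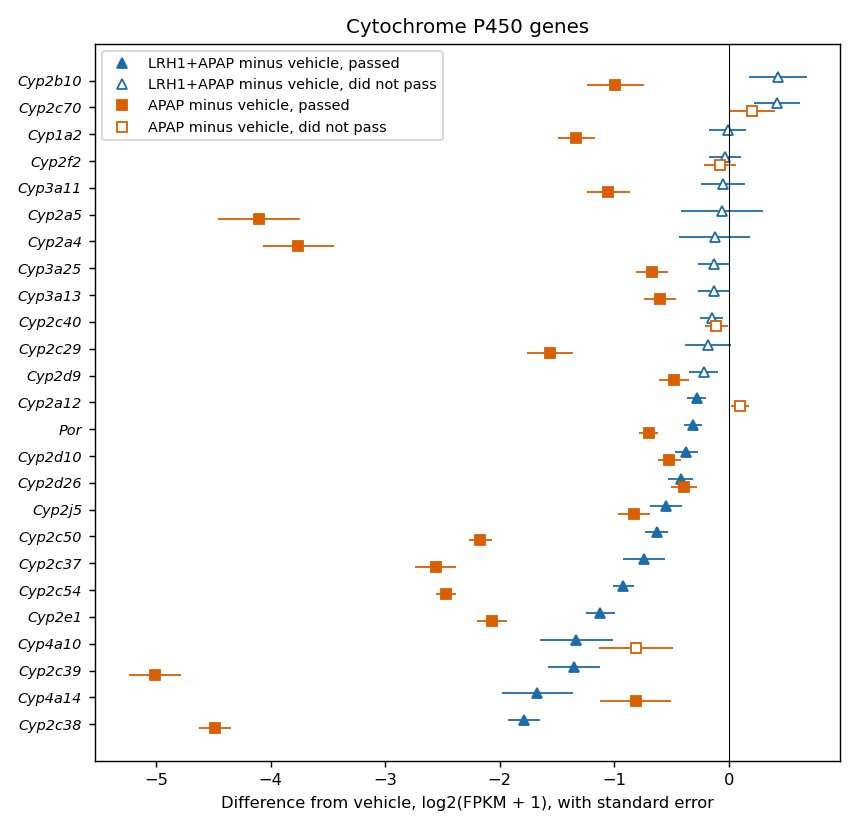
Differences from vehicle of 25 cytochrome P450 genes (Por, the P450 reductase, included) in LRH1+APAP livers (triangles) and APAP livers (squares) with standard errors; filled symbols passed. Both differences use the same vehicle livers. The triangles farthest below 0 were Cyp2c38, Cyp4a14, Cyp2c39, Cyp4a10 and Cyp2e1, and Cyp2a5, Cyp2a4, Cyp1a2 and Cyp3a11 lay near 0.

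Hepatocytes around the central vein express a set of genes maintained by Wnt signalling. Of 16 pericentral genes 2 rose (Axin2 and Cldn2) and 6 fell, 3 without vehicle liver 1 or LRH1+APAP liver 3. Glul, glutamine synthetase (chr1:153899930-153909723, mm10), was 193, 164 and 163 FPKM in vehicle, 33.0, 23.7 and 29.4 FPKM in APAP and 114, 138 and 146 FPKM in LRH1+APAP livers. It lay far above APAP (2.18, adjusted p = 0.000258) and slightly below vehicle (-0.38 ± 0.14, adjusted p = 0.0472, a call lost in 11 of 19 alternatives, from 0.00695 to 0.153). Axin2, a Wnt target, was 1.44, 1.76 and 1.89 FPKM in vehicle, 3.23, 1.40 and 2.09 FPKM in APAP and 7.10, 5.36 and 7.50 FPKM in LRH1+APAP livers, where alone it was high (1.50 ± 0.20 over vehicle, adjusted p = 0.000718). Rgn, regucalcin, was 459 to 547, 105 to 140 and 271 to 292 FPKM in the same order (-0.83 ± 0.11, adjusted p = 0.000807). Slc1a2, a glutamate transporter, fell from 26.3, 21.6 and 25.2 FPKM to 3.26, 5.88 and 4.91 FPKM (-2.18 ± 0.32, adjusted p = 0.00119). It lay above APAP, by 1.66 to 3.30 over 19 alternatives, a call lost in 3. Against APAP, 13 of the 16 pericentral genes were higher in LRH1+APAP livers and 0 were lower in limma, with a median of 0.91. In bulk tissue, fewer cells of a type and less RNA per cell cannot be told apart, here and for the other hepatocyte genes. Of 16 periportal genes 4 fell and 0 rose in limma (1 at an unadjusted p under 0.05), with 3 rises when only the 6 libraries were fitted or without APAP liver 2 and 2 without APAP liver 1. Pck1, which opens gluconeogenesis, went from 1310 to 1398 FPKM to 488 to 662 FPKM (-1.27 ± 0.27, adjusted p = 0.00611). The 4 became 1 without vehicle liver 1 or 2 or LRH1+APAP liver 3, and 2 without vehicle liver 3 or LRH1+APAP liver 1 or 2.

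Enzymes that conjugate drugs fell in 10 of 18 cases and rose in 2, with a median of -0.45. Sulfotransferases were among the lowest. Sult1a1, a phenol sulfotransferase, was 325, 287 and 266 FPKM in vehicle, 160, 284 and 266 FPKM in APAP and 147, 147 and 144 FPKM in LRH1+APAP livers (-0.99 ± 0.19, adjusted p = 0.00403). Papss2, which makes the sulfate donor, was 37.3 to 43.4, 8.48 to 11.9 and 22.4 to 23.7 FPKM in vehicle, APAP and LRH1+APAP livers. The pair that rose was Gstp1, at 658 to 777 FPKM in vehicle and 1193 to 1362 FPKM in LRH1+APAP livers (0.87 ± 0.10, adjusted p = 0.000378), and Gstm1.

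Bile acid genes went in both directions. Cyp7a1, whose 7-alpha-hydroxylase sets the pace of bile acid production (chr4:6265613-6275631, mm10), was 50.0, 37.7 and 19.7 FPKM in vehicle, 2.21, 1.77 and 1.13 FPKM in APAP and 34.6, 81.2 and 77.4 FPKM in LRH1+APAP livers. LRH1+APAP and vehicle livers overlapped (0.83 ± 0.39, adjusted p = 0.112), and both were far above APAP, LRH1+APAP by 4.52 (adjusted p = 0.00163). In the bile acid list, of 18 genes tested, 2 rose and 6 fell (12 after upper-quartile scaling, 10 with only the 6 libraries fitted). Akr1d1, a steroid reductase of the pathway, fell from 81.2 to 97.6 FPKM to 35.7 to 39.7 FPKM (-1.18 ± 0.22, adjusted p = 0.00325), and the uptake carrier Slc10a1 (NTCP) from 353 to 363 FPKM to 193 to 209 FPKM (-0.83 ± 0.22, adjusted p = 0.0139). The members that rose were the exporters Abcc2, from 64.1 to 70.2 FPKM to 101 to 115 FPKM, and Abcc4, from 0.239 to 0.364 FPKM to 0.823 to 1.74 FPKM. Among 18 genes known as LRH1 targets 9 fell, 1 rose and the median was -0.42. Of these, Nr0b2, the LRH1 partner SHP, was 21.7 to 36.1 FPKM in vehicle and 17.8 to 23.4 FPKM in LRH1+APAP livers (-0.35 ± 0.44, adjusted p = 0.527), and Cyp8b1, which makes cholic acid, was 170 to 213 and 116 to 150.3 FPKM (-0.53 ± 0.22, adjusted p = 0.0723). Serpina6, corticosteroid-binding globulin, was 231, 185 and 131 FPKM in vehicle, 21.3, 9.70 and 13.9 FPKM in APAP and 44.6, 59.0 and 48.9 FPKM in LRH1+APAP livers (-1.79 ± 0.28, adjusted p = 0.0015). Plk3, a stress kinase, was the member that rose, from 21.0 to 25.9 FPKM to 78.5 to 99.3 FPKM. Abcg5 and Abcg8, the sterol export pair, were among those that fell (-0.87 in each). With APAP alone, 13 of the 18 LRH1 targets fell against vehicle and 1 rose, with a median of -0.84. Against APAP, 2 of the 18 were higher and 1 lower in LRH1+APAP livers, with a median of 0.26.

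Of 24 transcription factors of hepatocytes 4 rose, 4 fell and 16 did not pass. Hnf4a was 149 to 180.4 FPKM in vehicle and 142 to 155 FPKM in LRH1+APAP livers (-0.12 ± 0.08, adjusted p = 0.28). Cebpb, a CCAAT-binding factor of the stressed liver, rose by 0.79 ± 0.12 (adjusted p = 0.00148). Nr1i3, the xenobiotic receptor CAR, was 234, 242 and 206 FPKM in vehicle, 144, 73.5 and 79.7 FPKM in APAP and 127, 99.0 and 116 FPKM in LRH1+APAP livers (-1.0 ± 0.23, adjusted p = 0.0081). The 4 falls were 10 after upper-quartile scaling and 2 without vehicle liver 1 or any of LRH1+APAP livers 1, 2 and 3. The 4 rises were 2 after upper-quartile scaling and 1 after quantile normalization.

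In fat metabolism, Fads2 and Fads1, the delta-6 and delta-5 fatty acid desaturases, were lowest in LRH1+APAP livers. They do not stand for the list of fatty acid and triglyceride synthesis. Against APAP, 4 of its members were higher and 3 lower in LRH1+APAP livers, with a median of 0.32. Fads2 was 295, 329 and 295 FPKM in vehicle, 262, 208 and 272 FPKM in APAP and 154, 136 and 134 FPKM in LRH1+APAP livers (-1.11 ± 0.11 against vehicle, adjusted p = 0.000197; -0.80 against APAP, adjusted p = 0.00673). Fads1 was 132 to 148, 100.1 to 116 and 68.2 to 76.4 FPKM (-0.96 ± 0.08, adjusted p = 7.78e-05; -0.60 against APAP, adjusted p = 0.00626). For both, no LRH1+APAP liver overlapped another group, and 69.2 percent of all genes tested likewise did not overlap vehicle. The share of genes that also did not overlap APAP is not given here, so the non-overlap marks neither gene by itself. Among 16 genes of fatty acid and triglyceride synthesis 3 rose against vehicle, led by Me1, malic enzyme (1.00 ± 0.08, adjusted p = 5.12e-05), and 4 fell, among them Thrsp, a lipogenic factor, from 185, 120 and 161 FPKM to 46.5, 61.2 and 24.6 FPKM (-1.86 ± 0.32, adjusted p = 0.00236). Unlike the desaturases, Thrsp lay above APAP, by 1.29 to 1.93 over 19 alternatives, a call lost in 4. The 3 rises were 1 after either rescaling, 6 with only the 6 libraries fitted and 5 without APAP liver 1, and the list's median of 0.16 was -0.07 after both rescalings.

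Fatty acid oxidation and ketogenesis fell in 14 of 19 cases and rose in 1 (median -0.37). Falls were moderate: Bdh1, of the last ketogenic step, went from 124 to 143 FPKM to 71.7 to 79.2 FPKM (-0.81 ± 0.15, adjusted p = 0.00317). Pdk4, a kinase that shuts off pyruvate oxidation, was the member that rose, from 2.06, 3.31 and 2.43 FPKM to 56.3, 36.7 and 52.8 FPKM (3.77 ± 0.34, adjusted p = 0.000103). The 14 became 5 without vehicle liver 2 and 6 without vehicle liver 3 or LRH1+APAP liver 2 or 3. Nuclear genes of the respiratory chain fell in 11 of 20 cases (median -0.23) and 0 rose in limma, also at an unadjusted p under 0.05, with Ndufs1 of complex I at 58.4 to 63.5 FPKM in vehicle and 47.3 to 48.1 FPKM in LRH1+APAP livers. These 11 were 20 after upper-quartile scaling, and 5, 4, 7, 5 and 3 without vehicle liver 1, vehicle liver 2, vehicle liver 3, LRH1+APAP liver 2 and LRH1+APAP liver 3. Cholesterol synthesis genes rose in 4 of 20 cases, below the 39.2 percent of all genes, and fell in 2, with 9 rises when only the 6 libraries were fitted and 8 without APAP liver 1. Those 4 rises were 1 after upper-quartile scaling, 0 after quantile normalization, 0 without vehicle liver 1, LRH1+APAP liver 1 or LRH1+APAP liver 3, and 2 without vehicle liver 3.

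Amino acid catabolism fell in 10 of 22 cases and rose in 1, Glud1, glutamate dehydrogenase (0.45 ± 0.08, adjusted p = 0.00214, with 0 that rose in limma after upper-quartile scaling). Hpd, of tyrosine breakdown, was 1948 to 2134 FPKM in vehicle, 610 to 966 FPKM in APAP and 1038 to 1188 FPKM in LRH1+APAP livers (-0.88 ± 0.16, adjusted p = 0.00334). Tat, tyrosine aminotransferase, overlapped vehicle, at 888, 981 and 1055 FPKM in vehicle, 244 to 286 FPKM in APAP and 638, 1043 and 829 FPKM in LRH1+APAP livers. The 10 were 4, 6, 5 and 3 without vehicle liver 1, vehicle liver 3, LRH1+APAP liver 1 and LRH1+APAP liver 3. Sugar metabolism genes fell in 6 of 16 cases (3 without LRH1+APAP liver 3) and rose in 2 (1 without vehicle liver 2 or LRH1+APAP liver 3), Slc2a1 and Pkm, the widely expressed glucose transporter GLUT1 and the muscle-type pyruvate kinase. Hypoxia-inducible genes rose in 6 of 15 cases (11 with only the 6 libraries fitted), near the 39.2 percent of all genes, and fell in 2 (1 when 1 vehicle or LRH1+APAP liver, whichever, was left out). Vegfa, the vascular growth factor, was 43.6 to 50.4 FPKM in vehicle and 79.2 to 101 FPKM in LRH1+APAP livers (0.87 ± 0.10, adjusted p = 0.000315).

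Secreted proteins of the liver fell in 8 of 20 cases and rose in 1, with a median of -0.20 that was 0.07 after quantile normalization. The 8 falls were 15 after upper-quartile scaling and 5 after quantile normalization, where the rises were 4. Alb did not pass (-0.04 ± 0.11, adjusted p = 0.765). Igfbp1, an insulin-like growth factor binding protein, was the member that rose, from 18.4 to 22.8 FPKM to 99.2, 102 and 151 FPKM (2.44 ± 0.50, adjusted p = 0.00514). Complement and coagulation genes fell in 9 of 21 cases and rose in 1 (0 after either rescaling, or without vehicle liver 1 or 3, APAP liver 3 or LRH1+APAP liver 1, 2 or 3). F9, coagulation factor IX, was 96.0 to 102 FPKM in vehicle and 62.0 to 68.2 FPKM in LRH1+APAP livers (-0.60 ± 0.07, adjusted p = 0.000428). The 9 were 15 after upper-quartile scaling, 5 without vehicle liver 2 or LRH1+APAP liver 1, and 4 without vehicle liver 3 or LRH1+APAP liver 3.

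Major urinary proteins, pheromone carriers that mouse liver secretes in bulk, were looked at after their values were seen. Of 20 Mup genes tested 17 fell and 3 (Mup16, Mup17 and Mup20) did not pass. Their reads are hard to assign because the genes are near-identical copies, so single members are uncertain. As a family they held 11.2, 12.4 and 15.9 percent of all FPKM in vehicle livers, 8.86, 8.26 and 7.91 percent in APAP livers and 5.45, 6.74 and 6.07 percent in LRH1+APAP livers. In vehicle liver 3, Mup17 alone stood at 14770 FPKM, against 17.1 and 153 FPKM in vehicle livers 1 and 2. Mup7 (chr4:60066470-60070475, mm10) was 3721, 3963 and 5091 FPKM in vehicle, 3594, 3429 and 3116 FPKM in APAP and 1331, 2401 and 919 FPKM in LRH1+APAP livers (-1.56 ± 0.30, adjusted p = 0.00384). Against APAP its difference of -1.24 (adjusted p = 0.0331) was lost in 9 of 19 alternatives. Mup9 was already low with APAP alone, at 11010 to 13480 FPKM in vehicle, 5483 to 6399 FPKM in APAP and 4206 to 5340 FPKM in LRH1+APAP livers. The naming rule took Mup7, Fabp2 and Serpina7 among genes whose LRH1+APAP livers passed against both other groups and overlapped neither. Fabp2, a fatty acid binding protein, was likewise lowest in LRH1+APAP livers, at 161, 195 and 168 FPKM in vehicle, 112, 93.1 and 115 FPKM in APAP and 71.9, 63.2 and 64.4 FPKM in LRH1+APAP livers (-1.37 ± 0.11, adjusted p = 5.05e-05). In the opposite sense Serpina7, thyroxine-binding globulin, was 3.11, 3.91 and 3.05 FPKM in vehicle, 7.25, 3.74 and 6.45 FPKM in APAP and 37.1, 40.4 and 63.9 FPKM in LRH1+APAP livers (3.43 ± 0.25 over vehicle, adjusted p = 3.10e-05; 2.82 over APAP, adjusted p = 0.00163).

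Genes of the circadian clock differed in opposite directions, 3 rising and 7 falling of 15. Arntl, which encodes the activator BMAL1, was 0.926 to 0.989 FPKM in vehicle and 12.5, 8.48 and 12.1 FPKM in LRH1+APAP livers (2.60 ± 0.13, adjusted p = 4.74e-06), and Nr1d1, its repressor REV-ERBalpha, rose by 2.53 ± 0.40 (adjusted p = 0.00153). Per3, a period gene, fell from 10.5 to 15.1 FPKM to 2.60 to 4.13 FPKM (-1.53 ± 0.21, adjusted p = 0.000805). Collection times are unknown here, so a difference in time of day cannot be told apart from the treatments. The 7 falls were 3 without vehicle liver 1, LRH1+APAP liver 1 or LRH1+APAP liver 3, and 4 without vehicle liver 2, vehicle liver 3 or LRH1+APAP liver 2.

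Of 20 SRF and actin genes 9 rose (median 0.85), near the 39.2 percent of all genes, but 18 when only the 6 libraries compared were fitted. Actb, beta-actin, was 74.8, 79.0 and 82.9 FPKM in vehicle and 141, 148 and 141 FPKM in LRH1+APAP livers, groups far apart, and missed the threshold (0.86 ± 0.46, adjusted p = 0.15) beside APAP livers of 191, 953 and 429 FPKM. Tagln, transgelin, was 2.34 to 3.89, 34.3 to 107 and 6.11 to 9.69 FPKM in vehicle, APAP and LRH1+APAP livers. The 9 became 18 without APAP liver 1, 14 without APAP liver 2, 4 without vehicle liver 1 and 3 without vehicle liver 2 or 3 or LRH1+APAP liver 1, 2 or 3, and 3 or 4 after upper-quartile or quantile scaling. YAP targets rose in 4 of 13 cases, below the 39.2 percent of all genes, 7 with only the 6 libraries fitted and 2 or 1 after upper-quartile or quantile scaling, with Cyr61 from 2.16 to 4.43 FPKM to 46.6 to 60.3 FPKM. EGFR, MET and growth factor genes rose in 6 of 20 cases and fell in 2, beside 39.2 and 8.02 percent of all genes, or 11 and 4 with only the 6 libraries fitted.

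Inflammatory genes moved unevenly. Acute phase genes rose in 4 of 23 cases, below the 39.2 percent of all genes. Saa1, serum amyloid A, was 36.3, 31.6 and 67.5 FPKM in vehicle and 132, 181 and 44.9 FPKM in LRH1+APAP livers, which overlapped (1.25 ± 0.56, adjusted p = 0.0948). Hamp, the iron hormone hepcidin, was 230, 536 and 15.6 FPKM in vehicle, 1053, 459 and 212 FPKM in APAP and 2351, 1131 and 1365 FPKM in LRH1+APAP livers (3.60 ± 1.14, adjusted p = 0.03, lost in 4 of 19 alternatives). The 4 were 10 with only the 6 libraries fitted, 9 and 7 without APAP liver 1 or 2, and 2 without LRH1+APAP liver 2 or after upper-quartile scaling. NF-kappaB subunits and feedback genes rose in 11 of 16 cases, 1 of them by at least 2-fold. The 11 were 7 after quantile normalization and 6 where a mean of at least 5 FPKM was required, and 1 member fell after either rescaling. Against APAP, 0 of the 16 were higher in limma and 3 were lower in LRH1+APAP livers, with a median of -0.34. Of 19 cytokines and chemokines listed, 13 averaged enough to test. Of the 13, 7 rose and 1, Cxcl12, fell, beside 39.2 and 8.02 percent of all genes. Members near 0 in vehicle, such as Ccl2, were tested through the livers in which they were high, so the count says little of the list. The rises were 4 after quantile normalization and 1 where a mean of at least 5 FPKM was required. In limma 0 fell without vehicle liver 1 or 2 or LRH1+APAP liver 1, 2 or 3. Ccl2, which attracts monocytes, was 0, 0 and 0.210 FPKM in vehicle, 8.26, 9.53 and 4.45 FPKM in APAP and 1.298, 2.298 and 1.946 FPKM in LRH1+APAP livers (1.40 ± 0.24 over vehicle, adjusted p = 0.00237; -1.52 against APAP, adjusted p = 0.0101). Interferon genes rose in 5 of 20 cases, below the 39.2 percent of all genes (3 without vehicle liver 1 or 2 or LRH1+APAP liver 3), with a median of 0.10 that was -0.13 and -0.18 after upper-quartile and quantile scaling, where 2 rose in each case and 4 and 5 fell. Mx2, an antiviral GTPase, went from 2.86 to 5.23 FPKM to 13.1 to 21.5 FPKM (1.83 ± 0.21, adjusted p = 0.000381).

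Markers of other liver cells moved with these groups, and their part in the gene differences above was not tested. Monocyte and macrophage markers rose in 14 of 16 cases (9 after quantile normalization). Their summed FPKM was 110.0 to 119 in vehicle, 153 to 281 in APAP and 252 to 327 in LRH1+APAP livers, with 0 of 16 at 0. Lyz2, lysozyme, was 27.6, 25.4 and 28.8 FPKM in vehicle, 52.6, 55.5 and 139 FPKM in APAP and 140.0, 152 and 123 FPKM in LRH1+APAP livers (2.30 ± 0.32, adjusted p = 0.000848). Lgals3, galectin-3 of phagocytes, rose from 1.33, 1.14 and 1.70 FPKM to 10.8, 33.9 and 19.7 FPKM (3.10 ± 0.42, adjusted p = 0.000781). Kupffer cell markers, of the resident macrophages, rose in 7 of 12 cases, beside 39.2 percent of all genes (3 after upper-quartile scaling), with summed FPKM of 222 to 251 in vehicle and 323 to 355 in LRH1+APAP livers. Clec4f, which defines Kupffer cells, did not pass (0.17 ± 0.09, adjusted p = 0.163).

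Of 15 neutrophil markers listed, 8 were high enough to test and 0 passed against vehicle in limma, with 0 at an unadjusted p under 0.05 (3 rose when only the 6 libraries were fitted or without APAP liver 2). Their summed FPKM was 1.79 to 3.03 in vehicle, 31.5 to 498 in APAP and 5.92 to 6.92 in LRH1+APAP livers, with 3 of 15 at 0 in vehicle and 5 in LRH1+APAP livers. S100a8, a calprotectin subunit of neutrophils, was 1.16, 0.553 and 0.347 FPKM in vehicle, 10.4, 156 and 15.2 FPKM in APAP and 1.34, 0.932 and 1.14 FPKM in LRH1+APAP livers. It overlapped vehicle (0.37 ± 0.82, adjusted p = 0.732) and lay below APAP (-3.85, adjusted p = 0.0236, lost in 4 of 19 alternatives). S100a9, its partner subunit, was 1.06, 1.42 and 0.807 FPKM in vehicle, 15.9, 232 and 22.9 FPKM in APAP and 1.74, 2.65 and 3.21 FPKM in LRH1+APAP livers. It did not overlap vehicle and did not pass (0.74 ± 0.82, adjusted p = 0.478, from 0.00839 to 0.71 over 19 alternatives, 2 of which called it).

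Fibroblast and stellate cell markers rose in 10 of 18 cases, beside 39.2 percent of all genes, with summed FPKM of 152 to 242 in vehicle, 333 to 545 in APAP and 343 to 375 in LRH1+APAP livers. Against APAP, 0 of the 18 were higher in LRH1+APAP livers in limma and 3 were lower, with a median of -0.35. The collagens that follow do not stand for the list in that comparison, and neither passed against APAP (adjusted p = 0.19 for Col1a1 and 0.137 for Col3a1). Fibrillar collagens separated LRH1+APAP from vehicle in every liver, as 69.2 percent of all genes tested did. Col1a1 was 0.890, 1.13 and 0.380 FPKM in vehicle, 1.75, 2.11 and 18.9 FPKM in APAP and 11.2, 15.8 and 11.9 FPKM in LRH1+APAP livers (2.97 ± 0.65, adjusted p = 0.0067). Col3a1 was 3.19, 5.45 and 1.65 FPKM in vehicle, 6.04, 5.48 and 39.5 FPKM in APAP and 33.4, 36.3 and 33.5 FPKM in LRH1+APAP livers (3.09 ± 0.64, adjusted p = 0.00532). APAP liver 3 stood with the LRH1+APAP livers for both, and APAP livers 1 and 2 stood near vehicle. Endothelial markers rose in 3 of 16 cases, below the 39.2 percent of all genes (7 with only the 6 libraries fitted, 5 and 6 without APAP liver 1 or 2, 1 after either rescaling), with summed FPKM of 163 to 181 in vehicle and 197 to 207 in LRH1+APAP livers, and the list's median of 0.25 was -0.05 after quantile normalization. Cholangiocyte markers rose in 3 of the 6 tested of 10 (1 where a mean of at least 5 FPKM was required). Their summed FPKM was 22.3 to 24.1 in vehicle and 44.0 to 139 in LRH1+APAP livers. Of 16 lymphocyte markers only Cd3e and Cd79b averaged enough to test, through the livers in which they were high, so their count says nothing of the list. The 14 in the deposited data summed to 1.48 to 1.67 FPKM in vehicle and 7.16 to 10.2 FPKM in LRH1+APAP livers. Erythroid markers rose in 1 of 6 tested (3 with only the 6 libraries fitted or without APAP liver 2, and 0 in limma after either rescaling or without vehicle liver 2 or 3 or LRH1+APAP liver 2 or 3), with summed FPKM of 538 to 888 and 808 to 2160. Hepatocyte defining markers fell in 3 of 10 cases (8 after upper-quartile scaling, 1 after quantile normalization), and their summed FPKM was 62700 to 66600 in vehicle and 54200 to 60400 in LRH1+APAP livers.

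**Figure D5:**
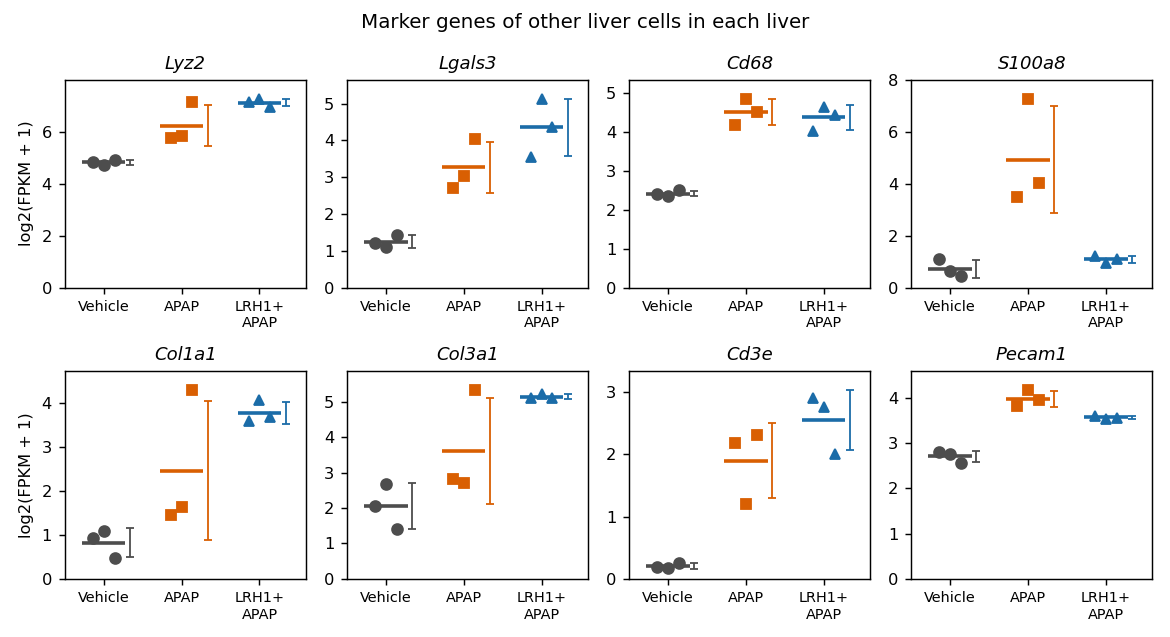
Levels of 8 marker genes of monocytes and macrophages (Lyz2, Lgals3, Cd68), neutrophils (S100a8), fibroblasts (Col1a1, Col3a1), T cells (Cd3e) and endothelium (Pecam1) in each liver as log2(FPKM + 1), with the mean as a line and the SD as a bar. S100a8 was high only in APAP livers, while Col1a1 and Col3a1 were high in LRH1+APAP livers and in APAP liver 3.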

How the data were processed

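RNA of 9 mouse livers was sequenced, 3 in each of 3 groups, from Illumina TruSeq mRNA libraries per the labels' protocols. The authors deposited FPKM for 36779 transcript models on mm10, and StringTie 1.3.3b, FastQC 0.10.0 and Bowtie2 2.2.6 are named, with no role or order, in the submitters' processing notes. FPKM was summed over models into 24541 gene symbols, and 0 value columns lacked a sample. Read depth is unknown, so no counting intervals are given, and precision rests on the spread between livers. Coordinates are those of the deposited file.

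The 12202 genes that averaged 0.5 FPKM or more across libraries were fitted as log2(FPKM + 1), pseudocount 1, with limma 3.58.1 in R 4.3.3: group means of all 9 libraries, an intensity trend, moderated variances, 6 residual degrees of freedom, two-sided tests and Benjamini-Hochberg adjustment over the genes tested. Other software was data.table (1.17.8), Python (3.11.15), pandas (2.3.3) and, for plots, matplotlib (3.10.9). The script was tested on simulated data.

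The members, the 44 gene lists (752 genes, 703 tested) and the tests were chosen with earlier results of these data known. The symbols Trf and Hc replaced Tf and C5 after the table was read. Named genes were Nr5a2, the 12 greatest rises and 12 greatest falls among genes that passed, whose groups did not overlap and whose higher group averaged 5 FPKM or more (Gm and Rik symbols passed over), up to 3 members of smallest p in each list, up to 6 genes of each direction that also passed against APAP without overlap, and a fixed panel. Further list members and the Mup genes were picked after their values were seen, and some genes the rule took are not reported here.

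Alternatives were a pseudocount of 0.1, no filter, a mean of at least 5 FPKM, upper-quartile scaling, quantile normalization, only the 6 libraries compared, no intensity trend, library weights, a replicate block, models under 200 bases left out, and each liver left out in turn. Groups share replicate numbers. The deviations of same-numbered livers from their group means correlated at -0.14 to 0.07, so the numbers were not taken as pairs.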

Additional observations from a re-analysis of the deposited data

How the results depend on the processing

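Upper-quartile scaling gave 2358 genes higher and 2396 lower than vehicle (470 and 216 by at least 2-fold), and quantile normalization gave 1899 and 2624 (409 and 174). A pseudocount of 0.1 gave 1412 higher and 131 lower by at least 2-fold, and a mean of at least 5 FPKM left 2887 higher. Fitting only the 6 libraries compared gave 1502 lower, and 203 higher and 60 lower against APAP. Library weights gave 1616 lower, and 3152 higher and 4412 lower against APAP, with an estimate that put 29.52 on APAP liver 3 and stopped before convergence. A replicate block, although the numbers did not pair the livers, gave 4360 higher and 868 lower than vehicle, and 508 higher and 299 lower than APAP. Leaving out 1 liver at a time gave 3309 to 5692 genes higher and 543 to 1357 lower than vehicle, 645 to 736 and 81 to 95 by at least 2-fold, and 158 to 2031 higher and 53 to 2607 lower than APAP. Apoa1, the main protein of high-density lipoprotein, fell by 0.41 and turned to 0.29 after quantile normalization (adjusted p = 0.019). The cause of these shifts was not tested. Unknown read depth limits what can be said of genes near 0 FPKM.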
